A study of Mus musculus with 6 samples.

Results

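The genes Cck, Gal, Sct, Adm, Penk and Nmb, which encode secreted peptides, were followed through cultured muscle-derived stem/progenitor cells. They were taken as a fixed list of 6 among the 21485 genes counted in every sample, and the list was drawn up because Cck led 1 young population and Gal and Sct led 1 old population. The levels of Cck, Gal and Sct in each sample therefore chose them, and these levels are given below as a description without a test. Only Cck, Gal and Sct reached 2 CPM (a gene's counts in every 1000000 counts of the sample) in any population, whereas Adm, Penk and Nmb stayed under 2 CPM in all 6. The term ectopic, used for these genes as a group, was not tested, because no tissue in which they are normally made was measured.

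The 6 samples were 3 populations of mouse cells isolated from young animals and 3 from old animals by serial plating of dissociated skeletal muscle on collagen-coated flasks, which keeps the slowly adhering cells. All 6 were grown in the same proliferation medium with fetal bovine and horse serum and chick embryo extract, with no other treatment, and were profiled by droplet-based 3′ single-cell RNA sequencing. The labels give no genotype, strain, sex or numerical age and do not say how many animals stand behind a population, so a p-value below measures the spread between cultured populations. They are called young 1 to 3 and old 1 to 3 after the replicate numbers in the labels.

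The files held 62849 cell barcodes, of which 61673 passed the filters on depth and mitochondrial share, between 8674 and 12541 per sample. Median depth per kept cell ranged from 13001 to 19951 unique molecular identifiers (UMIs, 1 per captured transcript). Young 1 and old 1 were counted with another Cell Ranger version and on a shorter list of 21849 features, and the other 4 samples on 32285 features. Any 2 libraries shared 23 to 35 barcodes, at most 0.369% of the smaller one. The share of cells with 2 or more UMIs of Myog, the transcription factor myogenin that marks myoblasts entering differentiation, differed widely, at 2.33%, 14.4% and 2.42% in young 1 to 3 and 0.363%, 9.69% and 35.9% in old 1 to 3. Summed over 20 contractile genes, the level was 14560 CPM in old 3 and between 388 and 4163 CPM in the other 5 populations. Of the endothelial markers 5 of 8, and of the immune markers 7 of 8, stayed under 1 CPM in every sample. Only 2 of 10 fibro-adipogenic and 1 of 8 pericyte and smooth muscle markers did. These 2 lists summed to 283 to 511 CPM and 22.1 to 493 CPM, the latter with Des, which is also a myogenic marker.

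Peptide hormones are cut from larger precursors in the secretory pathway, often amidated or sulfated, and act through G protein-coupled receptors on other cells. Cholecystokinin (Cck) and secretin (Sct) are gut hormones that drive the release of pancreatic enzymes and bicarbonate, and Cck is also a brain neuropeptide. Galanin (Gal), proenkephalin (Penk, the precursor of opioid enkephalins) and neuromedin B (Nmb) are neuropeptides, and adrenomedullin (Adm) is a vasodilator made by vessel walls and many cultured cells.

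The genes lie on 4 chromosomes of the GRCm38 build: Cck on chromosome 9 (121489824 to 121495694, minus strand), Gal on chromosome 19 (3409915 to 3414544, minus), and Penk on chromosome 4 (4133531 to 4138819, minus). Sct (141278330 to 141279133, minus), Adm (110627661 to 110629820, plus) and Nmb (80902227 to 80905076, minus) are far apart on chromosome 7. Promoter sequence was at hand for 5 of the 6 members. The 250 bases before the RefSeq start site of the 3 abundant members are shown because Sct moved with myogenic state in the cells and the other 2 did not pass that test. Capitals mark CANNTG, the E-box to which myogenic factors such as Myog are known to bind. Coordinates are GRCm38.p6, all on the minus strand, and each sequence ends at the base before the start: chr7:141279134-141279383 for Sct, chr19:3414545-3414794 for Gal and chr9:121495695-121495944 for Cck.
Sct: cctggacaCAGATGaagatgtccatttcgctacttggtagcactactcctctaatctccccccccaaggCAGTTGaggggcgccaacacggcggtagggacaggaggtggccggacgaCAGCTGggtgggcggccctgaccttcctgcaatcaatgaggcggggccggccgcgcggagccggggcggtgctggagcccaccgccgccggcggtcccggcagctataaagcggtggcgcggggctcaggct
Gal: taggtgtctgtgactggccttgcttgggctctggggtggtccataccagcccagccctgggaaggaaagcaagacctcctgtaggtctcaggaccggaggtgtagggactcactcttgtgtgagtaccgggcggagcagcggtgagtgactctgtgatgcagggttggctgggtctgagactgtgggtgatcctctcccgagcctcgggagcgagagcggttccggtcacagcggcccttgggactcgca
Cck: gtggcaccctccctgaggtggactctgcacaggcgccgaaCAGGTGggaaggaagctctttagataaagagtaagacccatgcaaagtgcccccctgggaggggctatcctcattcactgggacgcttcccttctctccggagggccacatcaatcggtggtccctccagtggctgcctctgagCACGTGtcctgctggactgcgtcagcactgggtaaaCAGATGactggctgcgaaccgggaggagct

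The Sct window held 3 E-boxes, at 242, 181 and 132 bases before the start, and the one at 132 reads CAGCTG. It also held TATAAA 28 bases before the start. The Cck window held 3 E-boxes, at 210, 66 and 30 bases, and TGCGTCA, a variant of the cyclic AMP response element, at 49 bases. No CANNTG was found in the Gal window. Both strands were searched in 32851 RefSeq windows of the same length: 66.2% held CANNTG, 13.0% CAGCTG, 12.4% TATAAA and 1.75% TGCGTCA. Also searched were GGGCGG, in 32.7% of windows and in those of Sct (123 and 69 bases before the start) and Gal (122 bases), and TGACGTCA, in 1.55% of windows and in none of the 3 shown. A match describes the letters only and no binding was measured.

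The level of Cck was 261 CPM in young 1, 1.01 in young 2 and 0 in young 3, and 54.8 in old 1, 0.0619 in old 2 and 38.2 in old 3. Young 1 stood 4.77-fold above the next population, old 1, and held 69.3% of all Cck UMIs of the series. Young 1 and old 1 were also the 2 samples counted on the shorter feature list, whereas old 3 was counted on the longer one. The part of this in the Cck levels was not tested. The groups overlapped fully, with a mean of 87.4 ± 150.4 CPM (SD, n = 3) in young and 31.0 ± 28.1 (SD, n = 3) in old populations. In young 3 no Cck UMI was found in 10631 cells, which allows a share of up to 0.0282% of cells with a UMI.

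Gal was at 0.0748 CPM in young 1, 26.6 in young 2 and 0 in young 3, against 3.54 in old 1, 0.591 in old 2 and 331 in old 3. Old 3 was 12.4-fold above young 2, the next in order, and held 91.2% of Gal UMIs. The mean was 8.89 ± 15.3 CPM (SD, n = 3) in young and 112 ± 189.6 (SD, n = 3) in old populations, so the SD exceeded the mean in both.

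For Sct the levels were 0.247, 3.79 and 1.40 CPM in young 1 to 3 and 1.06, 1.41 and 139 CPM in old 1 to 3. Old 3 stood 36.6-fold above young 2 and held 94.6% of the UMIs, while the other 5 populations lay within 0.247 to 3.79 CPM with the groups interleaved. Sct was the only 1 of the 3 abundant members with UMIs in every population.

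Adm was at 0, 0.595 and 0.00529 CPM in young 1 to 3 and at 0.172, 0.603 and 1.91 CPM in old 1 to 3. Penk was at 1.92, 0.693 and 1.70 CPM in young and 1.24, 0.0845 and 0.361 CPM in old populations. Nmb was at 1.98, 0.424 and 1.25 CPM in young and 0.859, 0.372 and 1.59 CPM in old populations. Groups overlapped for all 3 genes, and the range across populations was narrowest for Nmb, at 5.32-fold from lowest to highest. Nmb shares part of its locus with Sec11a on the same strand. Adm and Penk each overlap a non-coding gene on the opposite strand, Gm28863 and A830012C17Rik, neither of which was counted in all 6 samples.

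**Figure D1:**
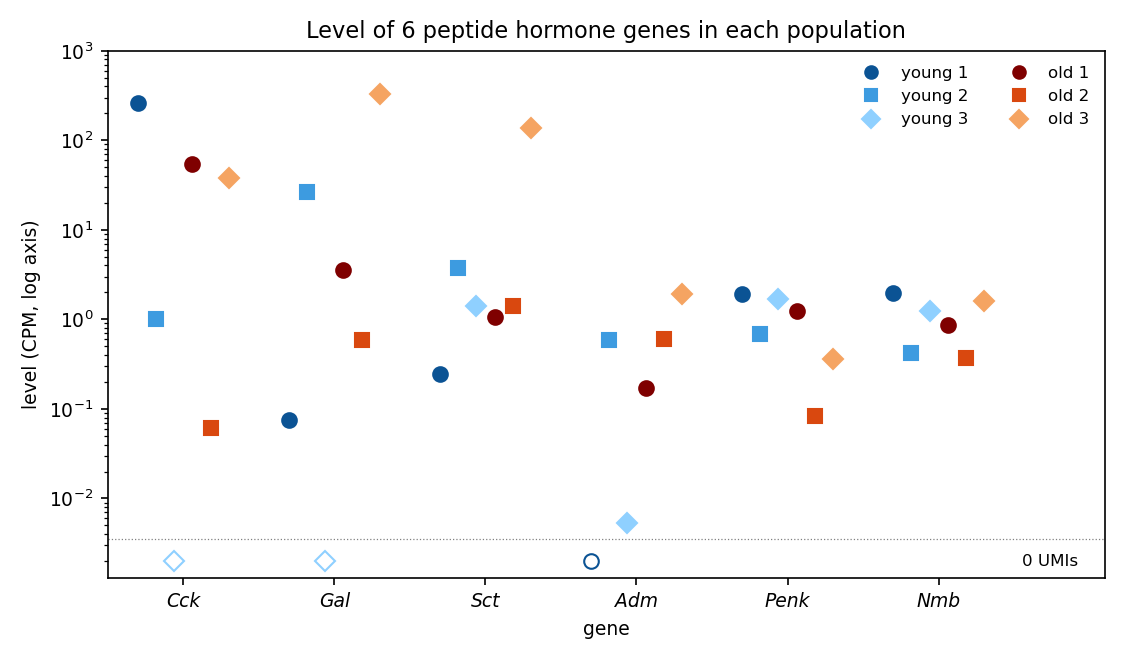
Level of each gene in each population, in CPM on a log axis; blue symbols are young and red or orange symbols old populations, and open symbols below the dotted line had 0 UMIs. Cck, Gal and Sct spread over more than 2 orders of the axis, Gal and Sct with 1 population far above the rest and Cck with 3 populations above the other 3, while Adm, Penk and Nmb stay under 2 CPM in every population.

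Old populations were compared with young ones over all genes with edgeR, with the feature list as a term. Only 1 of 15064 genes tested was called at an adjusted p under 0.05 (0.00664%), in the direction of higher in old, and none of Adm, Penk and Nmb was called. By edgeR 560 genes had an unadjusted p under 0.05, and DESeq2 called 193 genes higher and 39 lower. The fitted log2 difference, old minus young, was 3.73 (SE 4.03) for Cck, 4.11 (SE 2.76) for Gal and 3.95 (SE 1.81) for Sct, given without a p because the levels chose these genes. Old 3 carried these values: without it they were -2.85, -0.05 and 0.26. The sign for Cck also depended on the fit, at -1.78 without the feature list term, while the group means of Cck were higher in young.

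For the scarce members the same fit gave a log2 difference of 2.84 for Adm (SE 1.74, unadjusted p = 0.157), -1.87 for Penk (SE 0.84, unadjusted p = 0.0713) and -0.27 for Nmb (SE 0.92, unadjusted p = 0.782). The adjusted p by edgeR was 1.00 for each. The sign for Nmb turned positive in 4 of the alternative fits, with values from 0.06 to 0.36. The median log2 difference was 3.29 over the 6 members and -0.01 over all genes tested, and 3 of the 6 were chosen on the values behind it.

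Within a population, the abundant members were unevenly spread over cells. To compare shares of cells, each cell was thinned to 5000 UMIs, which left out 149 to 230 shallower cells per young and 215 to 373 per old population. No cell class in these cultures is known to lack the genes, so the share expected if the UMIs of a gene left after thinning were spread evenly over cells stands as the background. Cck UMIs were found in 27.0% of young 1 cells (95% Wilson interval 26.1% to 28.0%), against 71.3% for an even spread and 36.6% without thinning. In old 1 the share was 8.40% against 24.2% (12.9% without thinning) and in old 3 it was 2.09% against 9.61% (2.98% without thinning). Cck was thus carried by a minority of cells in all 3 populations that expressed it above 2 CPM. In old 3 the 1% of cells with most Cck UMIs held 82.4% of them, and 46 cells held as many as all others together.

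Gal was found in 23.3% of old 3 cells (Wilson interval 22.5% to 24.0%) against 78.6% for an even spread, and in 34.0% without thinning. A single cell of old 3 held 1369 Gal UMIs, and 209 of the 4262 cells with a Gal UMI held as many as all others together. In young 2 the share was 5.78% against 12.3% for an even spread, and 10.9% without thinning. Sct was found in 30.0% of old 3 cells (Wilson interval 29.2% to 30.8%) against 52.8%, and in 46.3% without thinning. In the other 5 populations between 0.0829% and 1.12% of cells held a Sct UMI (0.150% to 2.78% without thinning), and 13 to 300 kept cells had one.

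After thinning, Adm, Penk and Nmb lay near an even spread. With so few UMIs, observed and expected shares nearly coincide unless single cells hold several. The match therefore says little of how these genes are spread over cells. The highest shares were 0.822% of cells for Adm in old 3 against 0.859% expected, 0.847% for Penk in young 3 against 0.843%, and 1.03% for Nmb in young 1 against 1.04%. No cell held more than 2 Nmb UMIs in any population. Penk in young 2 lay further from the line, at 0.301% against 0.412%, with 12 UMIs in 1 cell. Without thinning, Penk lay below an even spread in young 2 (0.898% against 1.23%), old 1 (1.46% against 1.83%) and old 3 (0.351% against 0.525%). A cell held up to 7 Penk UMIs in old 1 and in old 3. At these levels a cell with a UMI cannot be told from a cell that received free RNA. Intervals and floors here cover counting error only.

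**Figure D2:**
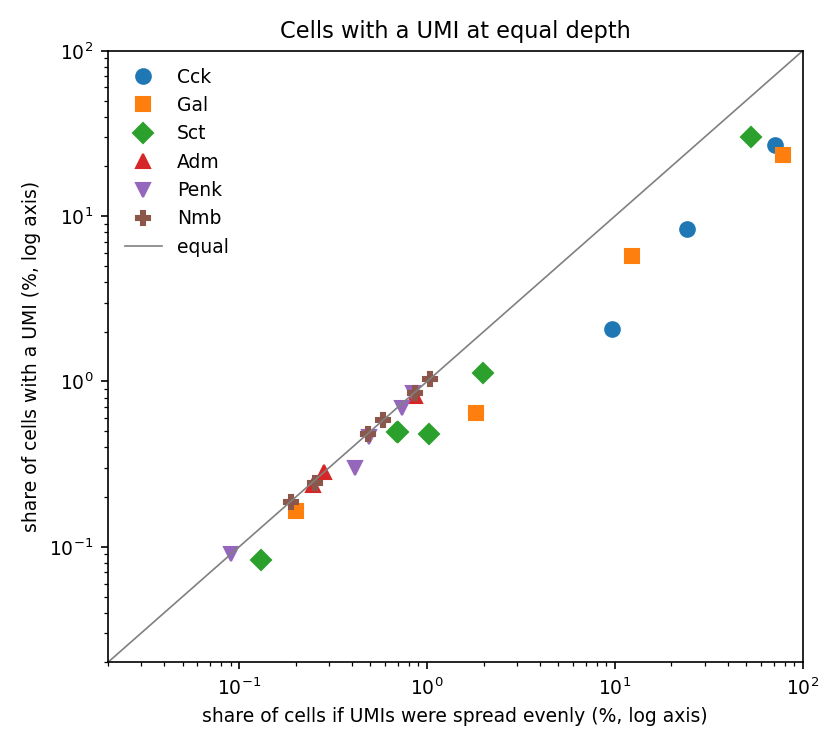
Share of cells with a UMI after thinning to 5000 UMIs (vertical, percent, log axis) against the share expected from an even spread of the same UMIs (horizontal, percent, log axis); each point is 1 gene in 1 population with at least 5 such cells. Points of Cck, Gal and Sct fall below the line of equality, the farthest at 23.3% against 78.6%, while points of Adm and Nmb lie on it.

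Old 3 carried all 3 abundant members, and few of its cells held UMIs of more than 1. At 5000 UMIs 694 of 12168 cells (5.70%) held both Gal and Sct, against 6.97% if the genes were independent. Cck and Gal met in 31 cells (0.255%, against 0.485%) and Cck and Sct in 27 cells (0.222%, against 0.626%). All 3 shares lay below the product of the single shares in this 1 library, a description with no replicate. Among the cells of old 3 with 0 Myog UMIs, all 3 pairs lay below it too. Gal and Sct met in 4.92% against 5.24%, Cck and Gal in 0.320% against 0.830%, and Cck and Sct in 0.152% against 0.621%. Among its Myog-positive cells Gal and Sct met in 6.50% against 8.24% (284 cells), again below the product. Both Cck pairs lay above the product there, at 0.137% against 0.0941% with Gal (6 cells) and 0.275% against 0.243% with Sct (12 cells). In young 2 the order was the opposite, with 11 cells (0.103%) holding both Gal and Sct against 0.0646%. Among its Myog-positive cells 8 did (0.523% against 0.309%), and among its Myog-negative cells 2 did (0.0236% against 0.0247%).

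The relation to myogenic state was tested within populations, by comparing cells with 2 or more Myog UMIs (Myog-positive) with cells with 0 (Myog-negative) after thinning. At least 50 cells of both classes were present in 5 populations, and old 1, with 36 Myog-positive cells, was left out of the fit. Of 14491 genes tested by edgeR, 1962 were higher in Myog-positive cells (13.5%) and 3401 lower (23.5%), which makes 37.0% in all; DESeq2 gave 2638 higher and 2984 lower. Of 16 myogenic markers 9 were higher, Myog itself among them because it defines the classes, and 4 lower, the latter including the stem cell factors Pax7 (-0.91) and Myf5 (-0.80). All 20 contractile genes were higher, with a median log2 difference of 6.43 against -0.12 over all genes tested. Among the 6 members 1 was called higher and none lower, with a median of 0.11.

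Sct was the member that rose. Its level in Myog-positive cells was 9.62, 20.7 and 44.8 CPM in young 1 to 3 and 8.54 and 277 CPM in old 2 and 3. In Myog-negative cells of the same populations it was 0.0697, 0.958, 0.413, 0.634 and 55.1 CPM. Sct was higher in Myog-positive cells in all 5, by ratios from 5.02 in old 3 to 138 in young 1. The ratio in young 1 rested on 24 and 9 UMIs, with only 13 kept cells holding any Sct and up to 10 UMIs in 1 cell. In the fit the log2 difference was 4.50 (SE 0.84, edgeR adjusted p = 0.0158). The adjusted p was 0.0661 without young 2, with a difference of 4.52, so the call, but not the size of the difference, depended on that population. Sct passed in 12 of 13 alternatives, and all 13 gave differences from 3.95 to 5.23. Markers of other cell types moved in both directions: of 4 immune genes tested, Cd79a (1.81) and Itgam (4.51) were higher in Myog-positive cells, as were the endothelial gene Cldn5 (3.14) and the pericyte gene Abcc9 (4.69). All of these were scarce: Cldn5 had at most 9 UMIs and Cd79a at most 53 in a population. Itgam had 55 UMIs in old 3 and at most 15 elsewhere, and Abcc9 had 454 in old 3 and at most 78 elsewhere. Others were lower: the endothelial gene Egfl7 (-0.47), the pericyte genes Rgs5 (-1.17) and Pdgfrb (-1.89) and 6 of 8 fibro-adipogenic genes tested. The immune list summed to 1.30 to 7.92 CPM in young and 1.84 to 4.91 CPM in old populations, and its defining gene Ptprc had at most 8 UMIs in a population. Their part in the Sct result was not tested.

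Old 3 stood above the others in both classes. The lowest Sct level of old 3, in its Myog-negative cells, exceeded the level of Myog-positive cells in each of the other 4 populations of the fit. Barcodes of old 3 under 1000 UMIs held Sct at 37.7 CPM (5 UMIs), and the part of free RNA in the Myog-negative level was not tested. In old 3 46.1% of Myog-positive cells (median depth 12882 UMIs) and 19.8% of Myog-negative cells (median depth 13371 UMIs) held a Sct UMI at equal depth. In young 3 the shares were 10.5% and 0.218%, at median depths of 12734 and 15839 UMIs. Myog-positive cells held 72.7% of the Sct UMIs of old 3 with 35.9% of its cells, and 68.1% of those of young 3 with 2.42% of its cells. The share was 72.7% in young 1 (24 of 33 UMIs), 75.7% in young 2 and 58.8% in old 2. In old 1 it was 8.70%, with 0.363% of the cells.

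The level of Sct followed the number of Myog UMIs. In young 3 it was 0.413 CPM in cells with 0 Myog UMIs, 1.50 with 1, 5.16 with 2 to 3, 23.9 with 4 to 7 and 136 with 8 or more. In old 3 the same steps gave 55.1, 85.0, 111, 154 and 394 CPM. Young 2 and old 2 rose at every step too, to 34.2 and 14.5 CPM, whereas young 1 was at 11.1, 10.2 and 6.97 CPM in the last 3 steps, with 5 to 10 UMIs in each.

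**Figure D3:**
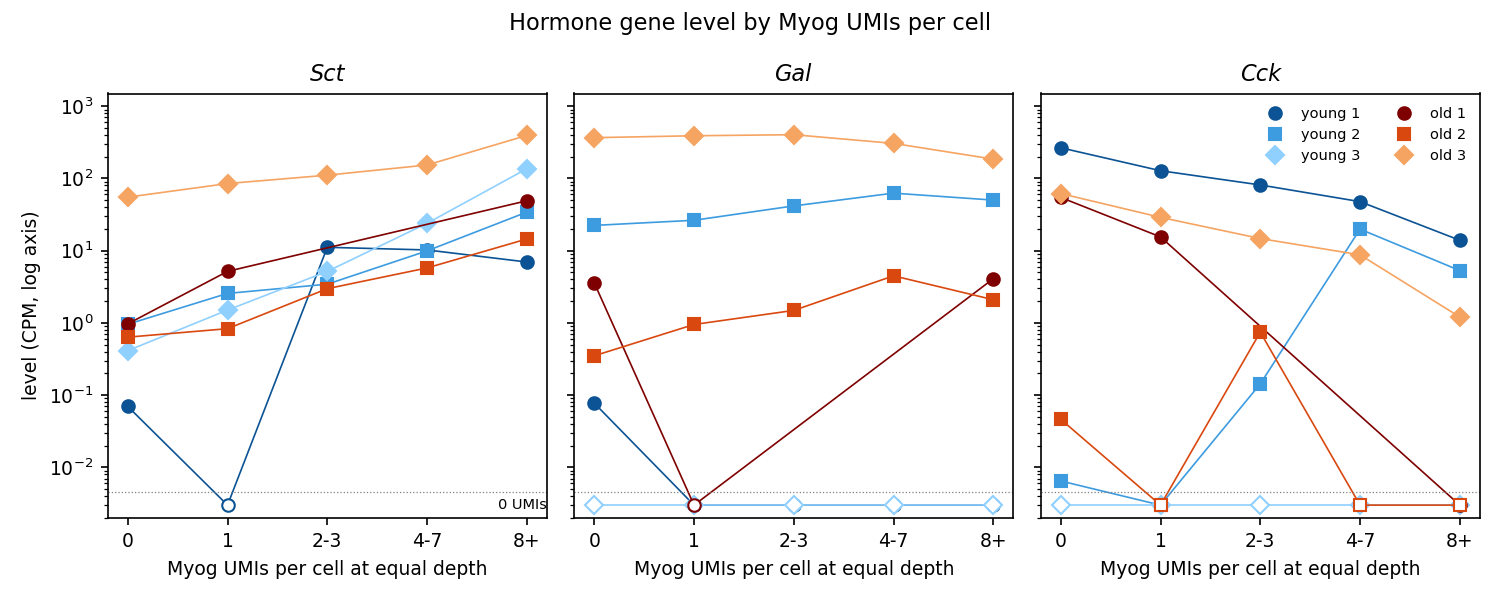
Level of Sct, Gal and Cck (CPM, log axis) in cells grouped by their Myog UMIs at 5000 UMIs per cell; each line is a population, groups of under 20 cells are left out, and open symbols at the bottom had 0 UMIs. Sct climbs from left to right in young 2, young 3, old 2 and old 3, Cck falls in young 1 and old 3, and Gal shows no common direction.

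Over the 12168 thinned cells of old 3, the genes most like Sct were Myog (Pearson r = 0.41) and 4 sarcomere genes, Actc1 (0.39), Tnnt1 (0.37), Tnnt3 (0.36) and Tnnc1 (0.35). In the other 5 populations r of Sct with Myog was lower, at 0.07, 0.20 and 0.34 in young 1 to 3 and 0.10 and 0.11 in old 1 and 2. With Actc1 it was 0.13, 0.30 and 0.44 in young 1 to 3 and 0.12 and 0.21 in old 1 and 2. Few cells stand behind these values, from 7 with a Sct UMI in young 1 to 119 in young 2. The cells of 1 library share its depth and free RNA, and r describes them only.

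Gal had no common direction with Myog. Its level was 50.7 CPM in Myog-positive against 22.4 CPM in Myog-negative cells of young 2, and 2.56 against 0.350 CPM in old 2. The order was the opposite in old 3, at 261 against 367 CPM. Along the steps of Myog, Gal in old 3 was at 367, 390, 403, 306 and 185 CPM, and in young 2 at 22.4, 26.4, 41.7, 62.6 and 50.2 CPM, so neither moved in 1 direction throughout. In young 1 and young 3 Gal had 10 and 0 UMIs in the classes together. The fitted log2 difference was 1.00 (SE 0.69, edgeR adjusted p = 0.336). Without old 3 it was 1.87 with an adjusted p of 0.0486.

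Cck was lower in Myog-positive cells where it was abundant. It stood at 50.1 against 266 CPM in young 1 and at 5.90 against 61.7 CPM in old 3, ratios of 0.188 (counting interval 0.157 to 0.225) and 0.0955 (0.0860 to 0.106). These intervals take each UMI as independent, although Cck UMIs lay clustered in a minority of cells, so the intervals are too narrow. In young 1 the level fell at every step of Myog, from 266 to 128, 81.3, 47.7 and 13.9 CPM. In old 3 it fell at every step too, from 61.7 to 28.9, 14.7, 8.75 and 1.21 CPM. In old 1, which was outside the fit, 1 of 8168 Cck UMIs lay in the 36 Myog-positive cells. Young 2 went the other way, with 194 of its 195 Cck UMIs in Myog-positive cells, but 120 of them came from 1 cell and only 6 cells had any. The fit over populations gave -1.01 (SE 2.82, edgeR adjusted p = 0.822), and the sign was positive without young 1 or without old 3.

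The scarce members showed smaller differences that did not pass. Penk was lower in Myog-positive cells in all 5 populations of the fit, with a log2 difference of -0.69 (SE 0.28, edgeR adjusted p = 0.0815), and Nmb likewise, at -0.47 (SE 0.23, adjusted p = 0.146). Adm was at 0.68 (SE 0.39, edgeR adjusted p = 0.20). In young populations the Myog-positive class held 10 Penk UMIs at most, and in old 2 it held 1. Penk passed in 3 of 13 alternatives. These were G1 cells only (-1.31, adjusted p = 0.0294), classes set by contractile genes (-1.47, adjusted p = 0.0161) and cells without the deepest (-1.55, adjusted p = 0.0183). Myog-positive G1 cells held 13 Penk UMIs in old 3 and at most 3 in any other population.

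The relation to the cell cycle was tested in the same way, by comparing cells called in S or G2/M phase with cells called in G1 in all 6 populations. Of 14796 genes tested by edgeR, 3106 were higher in cycling cells (21.0%) and 3983 lower (26.9%), 47.9% in all. Of the members 2 were lower and none was higher, and the median log2 difference was -0.62 against -0.05 over all genes tested. All 20 contractile genes (median -3.29) and 11 of 16 myogenic markers were lower as well, and none of either list was higher. Of 4 immune markers tested 2 were lower, and of 7 pericyte and smooth muscle markers 4 were lower and 1 higher. The share of cells in S or G2/M ran from 33.4% in old 2 to 85.4% in young 3.

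Gal was lower in cycling cells. Its level in S or G2/M against G1 cells was 21.2 against 35.0 CPM in young 2, 2.76 against 7.10 in old 1, 0.235 against 0.795 in old 2 and 266 against 459 in old 3. In young 1 it was 0.0599 against 0.0910 CPM, on 4 and 6 UMIs, and young 3 had none. All 5 populations with UMIs had the same order, and the log2 difference was -0.97 (SE 0.12, edgeR adjusted p = 0.000372). It passed in all 14 alternatives, with values from -1.08 to -0.81. Among Myog-negative cells alone it was -0.83 with an adjusted p of 0.0011. At equal depth 23.8% of cycling and 22.4% of G1 cells of old 3 held a Gal UMI, and 5.15% and 6.56% in young 2, and no order is read from these shares. Cycling cells were deeper before thinning, with a median of 18573 against 15061 UMIs in young 2.

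Sct was lower in cycling cells when all cells were counted, and not among Myog-negative cells. Its level in S or G2/M against G1 cells was 0.0599 against 0.440 CPM in young 1, 1.53 against 7.40 in young 2 and 0.620 against 7.37 in young 3. In old 1 to 3 it was 1.05 against 1.15, 0.910 against 1.70 and 109 against 199 CPM. Cycling cells were lower in 6 of 6 populations, with a log2 difference of -1.62 (SE 0.43, edgeR adjusted p = 0.0188). Without young 2 the adjusted p was 0.0528, at -1.41. In Myog-negative cells alone the difference was 0.17 (edgeR adjusted p = 0.295), higher in 3 populations and lower in 3. The lower ones were young 1 to 3 (ratios 0.762, 0.803 and 0.871) and the higher ones old 1 to 3 (1.67, 1.35 and 1.12). The counting interval held a ratio of 1 in young 1 to 3 and in old 2. It takes each UMI as independent, whereas Sct UMIs lay clustered in cells, so it is too narrow and no order is read from it. By phase calls alone, the share of Myog-positive cells in S or G2/M was 10.2% in young 1, 28.0% in young 2, 2.78% in old 1 and 5.45% in old 2, against 64.2% in young 3 and 47.4% in old 3.

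Inside the Myog-positive class of old 3, Sct was at 229 CPM in 2073 cycling cells and 331 CPM in 2296 G1 cells, and in young 3 at 11.4 CPM in 165 and 139 CPM in 92 cells. In young 2 it was at 7.80 against 27.0 CPM, and in old 2 at 8.17 against 8.56 CPM, with 9 UMIs in 45 cycling cells. The median number of Myog UMIs also differed between these groups, at 7 and 13 in old 3, 3 and 9 in young 3, 4.5 and 11 in young 2 and 3 and 6 in old 2. Its part in the Sct values was not tested.

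**Figure D4:**
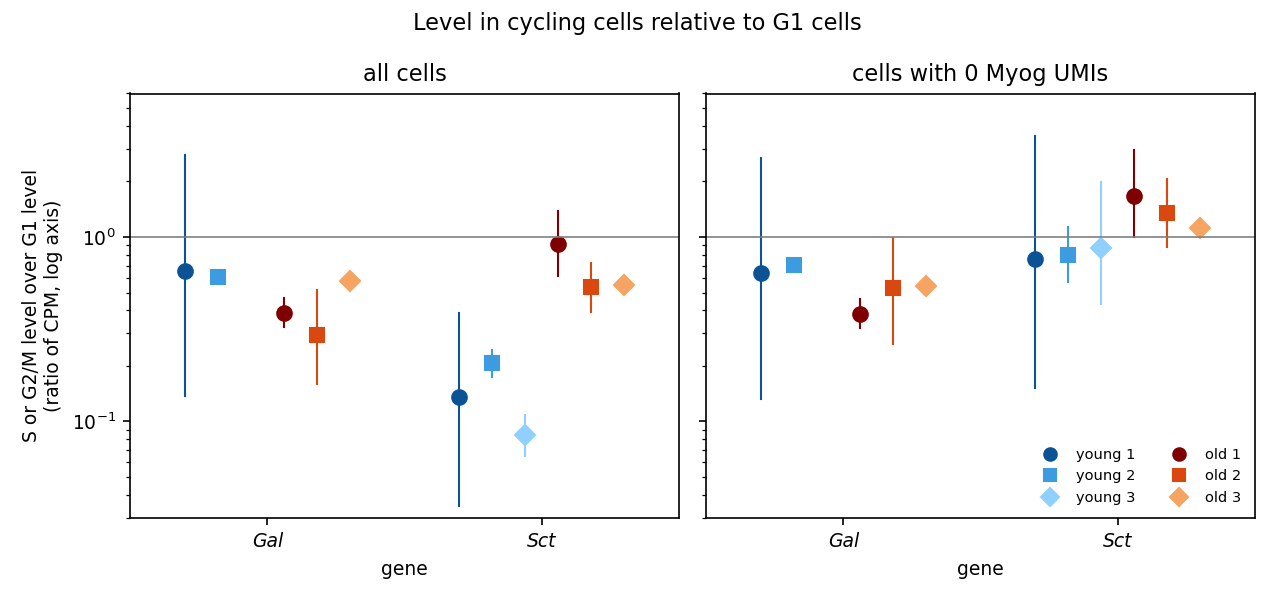
Ratio of the level in S or G2/M cells to that in G1 cells (log axis) for Gal and Sct in each population with UMIs in both classes, over all cells (left) and over cells with 0 Myog UMIs (right); bars are exact 95% counting intervals and the grey line marks a ratio of 1. Gal stays under 1 in both panels, whereas Sct is under 1 in all 6 populations on the left and on both sides of it on the right. The bars take each UMI as independent and are too narrow where UMIs cluster in cells.

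Cck, Adm, Penk and Nmb did not pass in the cycle comparison. Cck had a log2 difference of -0.63 (SE 0.61, edgeR adjusted p = 0.447), with young 1 at 274 CPM in cycling and 248 CPM in G1 cells, and old 1 at 50.6 and 70.7 CPM. Adm was at -0.61 (SE 0.24, edgeR adjusted p = 0.0592), lower in 4 of the 4 populations with enough UMIs, and passed in 3 of 14 alternatives. Penk (0.00, SE 0.23) and Nmb (0.07, SE 0.13) had adjusted p of 0.993 and 0.701, and their signs changed between alternatives.

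Whether these class differences differed between old and young populations was tested with an interaction term. No gene passed after adjustment in either contrast by edgeR, with 311 of 14796 genes at an unadjusted p under 0.05 for the cycle and 586 of 14491 for Myog, and DESeq2 was not run on the term. For Sct the difference, old minus young, was 2.05 (SE 0.36, unadjusted p = 0.000802, adjusted p = 1) for the cycle and -2.68 (SE 0.93, unadjusted p = 0.0381, adjusted p = 1) for Myog. For Adm it was -1.58 (SE 0.59, edgeR unadjusted p = 0.0334) for Myog. Every other value of a member had an unadjusted p above 0.05.

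Likeness over the 6 populations was measured as Pearson r of log2(CPM + 1). Of the genes most like a member, among 7978 genes with a mean of 10 CPM or more, few spanned a comparable range. For Cck these included Lce1g (r = 0.96), which was at 311 CPM in young 1, 104 in old 1 and 19.8 in old 3 and between 1.68 and 5.68 in the others. Young 1 and old 1 are the samples counted on the shorter feature list. For Gal the first was Gramd1b (r = 0.98), a sterol transfer protein gene at 37.3 CPM in old 3, 14.6 in young 2 and 2.46 to 7.64 elsewhere. For Adm the list held Ptgis (r = 0.98), the prostacyclin synthase, at 91.1 CPM in old 3 and at most 3.18 CPM in the other 5. Those for Sct, led by Zfp706 (r = 0.99, from 276 to 457 CPM), and those for Nmb, led by Mdp1 (r = 0.98), varied far less than the member. For Penk the first was Rpl32 (r = 0.98). With 6 populations and the highest values dominated by 1 of them, r orders genes and shows no more.

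Over cells, Gal in old 3 was most like Spp1, which encodes osteopontin (r = 0.28), then Gsta4 (0.23), Cst6 (0.22) and Cdkn1a (0.22), the p21 inhibitor of cell division. In young 2, with 615 Gal-positive cells, the same 4 values lay between -0.01 and 0.05. Cck in young 1 had Tm4sf1, a membrane protein gene, as its only gene at 0.2 or above (r = 0.21). With Tm4sf1, r of Cck was 0.46 in old 3 and 0.09 in old 1. No gene reached 0.2 for Adm, Penk or Nmb.

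Trak1, 14906 bases from Cck, lay between 17.4 and 28.0 CPM in the 6 populations. On the other side of Cck, Lyzl4 was at 0.262, 0.0983 and 0.0635 CPM in young 1 to 3 and 0.423, 0.0113 and 0.12 CPM in old 1 to 3. The 3 populations with most Cck were also the highest in Lyzl4, all under 1 CPM. Old 3 and young 2 lay close together, however, and old 1 rather than young 1 was highest. Vipr1, the next gene on that side, was highest in old 1 (0.291 CPM) and young 3 (0.185 CPM) and did not follow Cck. Cpt1a, 24182 bases from Gal, lay between 20.2 and 29.5 CPM, and Tesmin, 2092 bases from Gal, under 1 CPM throughout. Both nearest neighbours of Sct were highest in old 3, at low levels. Cdhr5, on 1 side, was at 0.148 CPM in old 3 and at most 0.0103 CPM elsewhere. On the other side Drd4, the dopamine D4 receptor gene 12873 bases away, was at 1.73 CPM in old 3 and at most 0.0414 CPM elsewhere. In old 3 312 Drd4 UMIs lay in Myog-positive and 1 in Myog-negative cells. In the other 5 populations Drd4 had at most 5 UMIs in a class, so its relation to Myog rests on old 3.

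The receptors of the 6 peptides were scarce. Of 18 receptor genes 12 stayed under 1 CPM in every population. The Cck receptor gene Cckar had no UMI in any population, and Cckbr had 12 at most. Of the galanin receptors, Galr1 had 8 UMIs at most, Galr2 3 and Galr3 2. The opioid receptor genes Oprd1, Oprm1 and Oprk1, which enkephalins engage, and the neuromedin B receptor gene Nmbr stayed under 0.3 CPM. The exceptions were the secretin receptor, Calcrl and its partners Ramp1 and Ramp3, Ackr3 (6.63 to 38.9 CPM), a scavenger receptor that binds adrenomedullin, and Ogfr (17.0 to 25.7 CPM), the opioid growth factor receptor, which binds enkephalin.

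Sctr, the secretin receptor, was at 2.50, 6.09 and 0.265 CPM in young 1 to 3 and 2.07, 7.68 and 5.28 CPM in old 1 to 3. It rose in Myog-positive cells together with its ligand, with a log2 difference of 1.21 (SE 0.27, edgeR adjusted p = 0.0099), and was higher there in all 5 populations of the fit. In old 3 the levels were 8.05 CPM in Myog-positive and 3.56 CPM in Myog-negative cells. Sctr was lower in cycling cells (-0.55, SE 0.13, edgeR adjusted p = 0.0050). Calcrl, the receptor that adrenomedullin uses with Ramp2 or Ramp3, lay between 1.51 and 5.08 CPM and was lower in cycling cells (-0.44, SE 0.10, edgeR adjusted p = 0.0054). Ramp2 was at most 0.63 CPM, and Ramp3 was at 11.8 CPM in old 1 and at most 0.909 CPM elsewhere. Ramp1, which with Calcrl chiefly makes the receptor for calcitonin gene-related peptide, lay at 0.281 to 6.00 CPM and was higher in Myog-positive (0.80, SE 0.20, edgeR adjusted p = 0.0143) and lower in cycling cells (-0.76, SE 0.14, adjusted p = 0.0011). Of the 18 receptor genes 8 were tested in the Myog comparison, of which 2 were higher and none lower, beside 13.5% and 23.5% of all genes. Of the 9 tested in the cycle comparison 3 were lower and none higher, beside 26.9% and 21.0% of all genes, so the lower share is near that of all genes.

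Enzymes that turn precursors into active peptides were partly present. Carboxypeptidase E (Cpe), which trims basic residues, lay between 30.5 CPM in old 3 and 229 CPM in young 1, so the population highest in Gal and Sct was lowest in Cpe. The amidating enzyme gene Pam lay between 44.3 and 88.2 CPM, and the sulfating enzyme gene Tpst2 between 77.5 and 163 CPM. The neuroendocrine convertase genes Pcsk1 and Pcsk2 reached at most 1.46 and 1.86 CPM, whereas the general convertase gene Furin lay between 30.9 and 52.4 CPM. In Myog-positive cells Cpe was lower (-0.74, SE 0.15, edgeR adjusted p = 0.0080) and Furin higher (0.54, SE 0.17, edgeR adjusted p = 0.0408). Of 18 processing genes 17 were tested there, with 1 higher and 5 lower, beside 13.5% and 23.5% of all genes. In cycling cells 4 of 17 were higher and 4 lower, beside 21.0% and 26.9% of all genes, which is near the background in both directions. None of the 18 passed between old and young populations, where only 1 of 15064 genes did by edgeR.

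Of 11 peptidases that break down secreted peptides 9 were tested. In Myog-positive cells Thop1 (log2 difference 0.83, SE 0.14) and Lnpep (0.39, SE 0.12) were higher, while Anpep (-1.03, SE 0.33), Ide (-0.44, SE 0.09) and Nln (-0.48, SE 0.08) were lower. In cycling cells 3 were lower, among them Mme (-0.76, SE 0.14), the neprilysin that cleaves enkephalins, and none was higher. Over all genes 13.5% were higher and 23.5% lower in Myog-positive cells and 21.0% were higher and 26.9% lower in cycling cells, and with 9 peptidases tested nothing particular to them is read from these counts. None passed between old and young populations, where only 1 of 15064 genes did by edgeR.

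Markers of neuroendocrine secretory granules were mostly scarce. Of 16 such genes 10 stayed under 1 CPM in every population. Chga, the granule protein gene that defines these cells, had 2 UMIs in the whole series, and Chgb, Vgf and Snap25 stayed under 0.2 CPM. Of 10 neural and glial markers 7 stayed under 1 CPM in every population, while Tubb3, a tubulin gene, lay between 6.24 and 78.4 CPM. Summed over the 16 granule genes, the level was 36.5 to 39.1 CPM in young and 22.3 to 40.0 CPM in old populations, and it was lowest in old 2 and old 3. Ptprn made up 7.25 to 32.7 CPM of this sum. None of the 9 granule genes tested in the Myog comparison was called, beside 37.0% of all genes. Scg2 and Ptprn were lower in cycling cells, 2 of 10 tested, beside 26.9% of all genes.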

How the data were processed

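The deposited files are 10x matrices of UMI counts per gene and cell for 6 samples. Per the submitters' processing notes the authors used Cell Ranger 7.2.0, Seurat 5.134 and the mm10 build, and per the file headers young 1 and old 1 came from Cell Ranger 7.0.0. Genes in all 6 matrices were kept, which hold 98.5% to 99.9% of UMIs per sample. Kept cells had at least 1000 UMIs, at least 500 genes and under 15% mitochondrial UMIs. No doublet caller was run; the fits were repeated without the deepest 8% of cells of each sample, an alternative chosen after seeing the data. CPM is UMIs of a gene in every 1000000 UMIs of the sample or class. Phases were called with scanpy 1.11.5 on cells thinned to 5000 UMIs. Counts were summed per sample, or per sample and class, and tested with edgeR 4.0.16 (quasi-likelihood, TMM, filterByExpr, Benjamini-Hochberg over all genes, two-sided), with sample as a term within populations. DESeq2 1.42.0 was an alternative. The script was tested on simulated data. Named genes are the members, the 5 genes most like each over samples or over cells (r of 0.2 or more), 3 neighbours on each side, and list genes at 5 CPM or past a test; others were named after their values were seen. The members and lists were chosen with earlier results of these data known. Promoters are from RefSeq, and gene positions from GENCODE M21. Same-numbered samples deviated with r = 0.38, 0.22 and -0.06, so the numbers were not taken to pair them.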

Additional observations from a re-analysis of the deposited data

Results flagged for a closer look

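Barcodes under 1000 UMIs were left out of every comparison. In old 3 these shallow barcodes held 38 Gal UMIs, a level of 287 CPM beside 331 CPM in kept cells, and 5 Sct UMIs, a level of 37.7 CPM beside 139 CPM. In the other 5 populations they held no Gal UMI and 1 Sct UMI, in old 1. Levels in kept cells were low there, and no contrast is read from this. Whether these barcodes are debris, nuclei or droplets with free RNA was not tested.

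The 36 Myog-positive cells of old 1 were too few for the fit. They held 14 Sct UMIs, a level of 30.4 CPM against 0.969 CPM in its Myog-negative cells, a ratio of 31.4 (exact counting interval 16.7 to 54.4). The interval takes each UMI as independent, but a cell of old 1 held up to 13 Sct UMIs, so it is too narrow.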

How the results depend on the processing

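For old against young, the count of genes called was 232 with DESeq2, 0 without the feature list term, 0 on the longer feature list only and 0 to 3 when 1 population was left out. With the replicate number as a replicate block it was 1, and the block changed no call of Adm, Penk or Nmb. The log2 difference was then -1.49 for Cck. Counts for the other comparisons stayed within 1.5 times, at 3582 to 5126 for Myog and 6228 to 6656 for the cycle with 1 population left out. The Nmb difference between old and young turned to 0.36 on the longer feature list and ranged from -1.34 to 0.36 with 1 population left out. Sct in cycling against G1 cells turned to 0.17 in Myog-negative cells. Penk there turned to -0.041 with DESeq2, -0.027 with RLE scaling, -0.071 in Myog-negative cells and -0.091 for G2/M against G1, and ranged from -0.12 to 0.23 with 1 population left out. Nmb there turned to -0.0079 with thinned counts, -0.077 in Myog-negative cells and -0.10 for S against G1. Cck in Myog-positive cells turned to 1.98 with DESeq2 and ranged from -2.71 to 1.68 with 1 population left out. The cause was not tested.

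Depth limits the scarce members most: 1 UMI of Adm, Penk or Nmb in a cell cannot be told from free RNA. With 3 populations a group and an SD near or above the mean for Cck, Gal and Sct in both groups, differences between old and young are poorly bounded.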

Other observations

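Among 70 other genes of peptide hormones and neuropeptides, 58 stayed under 1 CPM in every population and 28 were tested in each comparison. In Myog-positive cells 3 were higher and 4 lower, beside 13.5% and 23.5% of all genes tested. Higher were Tac4, a tachykinin gene (log2 difference 3.45, SE 0.46, edgeR adjusted p = 0.00095), Ghrl, the ghrelin gene (3.03, SE 0.69, edgeR adjusted p = 0.010) and Tac2, the neurokinin B gene. All 3 stayed under 0.4 CPM in every population. Tac2 rested on old 3, with 26 UMIs in its Myog-positive and 0 in its Myog-negative cells and at most 2 UMIs in any other population, so its call says nothing of the others. Among those that were lower were the growth and vascular factors Bdnf (-1.75, SE 0.14), Apln (-1.28, SE 0.16) and Edn1 (-2.31, SE 0.64).

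Bdnf lay between 4.31 and 102 CPM and was present in all 6 populations, unlike Cck and Gal. None of the 28 genes tested passed between old and young populations by edgeR, where only 1 of 15064 genes did. In cycling cells 1 was higher, Apln (0.71, SE 0.11, edgeR adjusted p = 0.0006), and 6 were lower, beside 21.0% and 26.9% of all genes tested.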
